A study of Mus musculus with 3 samples.

Results

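*H19*, *Igf2*, *Dlk1*, *Mest*, *Plagl1*, *Peg3*, *Zim1*, *Cdkn1c*, *Grb10* and *Meg3* are imprinted genes, and their transcripts were followed in cells of healing mouse skin wounds. These 10 genes, of 32285 measured, were picked by symbol, with earlier results of the same libraries known, as imprinted growth genes that stood out in wound fibroblasts. Their levels by day and cell class, and how often they were found together in a fibroblast, are the values that led to the choice, so they are described here without any test. Full-thickness wounds were made by punch in the dorsal skin of male C57BL/6J mice, an inbred laboratory strain, aged 7 to 12 weeks, and the wound tissue was dissociated on Day 3, Day 7 or Day 14 post injury (the study's methods describe excisional wounds and the repository's design text incisional ones). Each day is 1 library of tissue pooled over wounds, and differences between days are without replicates. No unwounded skin library was analysed here, so the values do not show whether any of these genes was silent before injury. All mice carried one inbred genome, so transcripts of the maternal and paternal alleles cannot be told apart.

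At an imprinted gene, the copies inherited from the mother and the father differ in DNA methylation, and mostly only one of them is transcribed. Many imprinted genes are abundant in the embryo, decline after birth and regulate growth, with paternally expressed genes such as *Igf2*, *Dlk1*, *Mest* and *Peg3* and maternally expressed genes such as *H19*, *Meg3*, *Cdkn1c* and *Zim1* often lying next to each other. *Igf2* encodes a growth factor of the insulin family, *Grb10* an adaptor that restrains the insulin and IGF1 receptors, *Cdkn1c* the cyclin-dependent kinase inhibitor p57, and *Plagl1* a zinc finger transcription factor known to act on other imprinted genes. Fibroblasts are the cells that lay down the collagen matrix of the wound.

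The Day 3, Day 7 and Day 14 libraries held 5158, 22924 and 16611 barcodes and 38133650, 120940799 and 112713257 UMIs (molecular barcodes that count captured transcripts once each), and after filters 4360, 19590 and 13510 cells were kept. Clusters were named from marker lists, and 413, 5950 and 7422 cells were fibroblast-like. In the 6 fibroblast-like clusters, 8 of 8 fibroblast markers (among them *Col1a1*, *Dcn* and *Pdgfra*) met the naming limit, except in cluster 15, where 5 did. Cluster 15 was led by *Bmp4*, which the study used to mark mesenchymal cells apart from fibroblasts, and the summed levels of *Igf2*, which rest on it in part, are given with and without it. Shares and pairs of *Igf2* include it. Fibroblast-like cells of Day 3 were far deeper, with a median of 44272 UMIs against 10282 and 9607 on Days 7 and 14. Summed markers of macrophages inside fibroblast-like cells reached 77.7, 257 and 90.4 CPM (UMI counts scaled to a common total) on the 3 days with 8 of 8 markers detected, those of dendritic cells 208, 149 and 106 CPM, those of neutrophils 59.0, 56.1 and 1.55 CPM, those of epithelial cells 7.63, 18.7 and 104 CPM, and those of endothelial cells 6.98, 13.9 and 12.4 CPM. Of the 8 dendritic cell markers, 6, 8 and 8 were detected on the 3 days. Whether these transcripts were carried over from other cells, and their part in the values, was not tested. Only 43, 19 and 111 barcodes were shared between pairs of libraries.

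The 10 genes lie in 6 chromosomal neighbourhoods (mouse genome GRCm38, positions from GENCODE vM21). *H19* (chr7:142575529-142578143, minus strand) and *Igf2* (chr7:142650766-142666816, minus strand) are 72.6 kb apart, and *Cdkn1c* (chr7:143458339-143461050, minus strand) lies 792 kb from *Igf2*. *Zim1* (chr7:6671269-6696450, minus strand) and *Peg3* (chr7:6703892-6730431, minus strand) are separated by 7.44 kb. *Dlk1* (chr12:109452823-109463336, plus strand) and *Meg3* (chr12:109541001-109571726, plus strand) are 77.7 kb apart. *Mest* (chr6:30723547-30748465, plus strand), *Plagl1* (chr10:13060504-13131694, plus strand) and *Grb10* (chr11:11930508-12038683, minus strand) stand alone among the 10. *H19* and *Meg3* are annotated as long intergenic non-coding RNAs and the others as protein-coding genes.

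Among these 10 genes, 4 host a microRNA on their own strand, and the mature sequences (RefSeq, GRCm38.p6, 5′ to 3′) are shown because *H19*, *Mest* and *Igf2* give rise to them besides their long transcripts. Capitals mark the seed, bases 2 to 8. The hairpin of miR-675 overlaps an exon of *H19* and that of miR-770 an annotated exon of *Meg3*, while those of miR-335 and miR-483 lie in introns of *Mest* and *Igf2*.
miR-675-5p: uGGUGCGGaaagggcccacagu
miR-675-3p: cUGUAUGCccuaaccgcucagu
miR-335-5p: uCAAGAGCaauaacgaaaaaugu
miR-335-3p: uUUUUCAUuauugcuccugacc
miR-483-5p: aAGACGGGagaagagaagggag
miR-483-3p: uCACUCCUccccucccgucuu
miR-770-5p: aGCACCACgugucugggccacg
miR-770-3p: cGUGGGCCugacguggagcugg
No seed was shared between these 8. The libraries captured polyadenylated 3′ ends, so the microRNAs themselves were not measured.

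In fibroblast-like cells, 6 of the 10 genes were at least 2-fold higher on Day 7 than on Day 3 (*H19*, *Igf2*, *Dlk1*, *Mest*, *Zim1* and *Cdkn1c*) and 0 were at least 2-fold lower, where 12.4% of 14465 genes with at least 20 UMIs were that much higher and 10.2% that much lower. Between Day 7 and Day 14, *Peg3* and *Zim1* were at least 2-fold higher on Day 14 and *H19* was at least 2-fold lower, against 9.01% and 9.58% of 15605 genes. *Plagl1*, *Grb10* and *Meg3* were within 2-fold in both steps. The Day 3 level of *Igf2* rested on 16 UMIs, and among cells of at most 20000 UMIs, of which Day 3 had 54 with 3 *Igf2* UMIs, its log2 ratio was -0.17. Levels are CPM over the summed UMIs of all fibroblast-like cells of a library, with 95% exact Poisson intervals that cover counting error only, and ratios compare libraries on the log2 scale with exact binomial intervals.

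**Figure D1:**
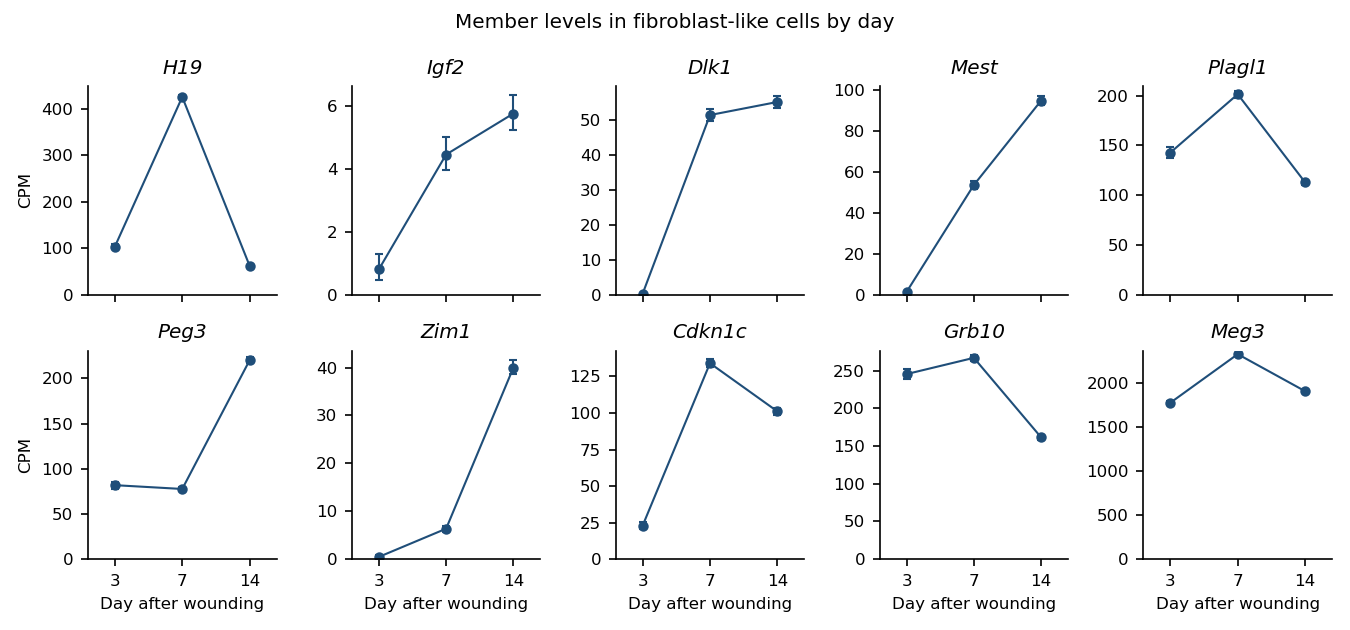
Level of each of the 10 genes (CPM, y axis from 0, own scale per gene) in all fibroblast-like cells of the Day 3, Day 7 and Day 14 libraries (x axis), with bars for 95% exact Poisson intervals and 1 library per point. *H19* peaks at 425 CPM on Day 7, *Dlk1* and *Mest* lie near 0 on Day 3, and *Peg3* and *Zim1* are highest on Day 14.

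*H19*, a non-coding RNA that is abundant in fetal tissue and in muscle precursors, had the sharpest Day 7 peak. On Days 3, 7 and 14 its level was 103 CPM (98.9 to 108), 425 CPM (420 to 430) and 62.0 CPM (60.2 to 63.8), with no overlap of the intervals. The Day 7 level was 4.11-fold that of Day 3, and the Day 14 level was 6.86-fold below that of Day 7 (log2 ratio -2.78, -2.82 to -2.73). After each cell was thinned to 2000 UMIs, the share of cells with an *H19* UMI was 13.2% (10.1 to 16.9, Clopper-Pearson) among 401 Day 3 cells, 26.0% (24.9 to 27.1) among 5846 Day 7 cells and 5.91% (5.37 to 6.48) among 7075 Day 14 cells. The share of cells with the transcript thus had the same order of days as the summed level. Its neighbour *Igf2* was scarce throughout, at 0.798 CPM (0.456 to 1.30), 4.45 CPM (3.95 to 5.0) and 5.76 CPM (5.22 to 6.34) on the 3 days. From Day 7 to Day 14 the pooled log2 ratio of *Igf2* was 0.37, but without cluster 15 its level was 4.27 and 4.28 CPM, and inside each of the 4 clusters followed over both days it was lower on Day 14, as *H19* was, in 2 of them (clusters 1 and 3) beyond counting error.

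*Plagl1* was found at 143 CPM (137 to 148), 201 CPM (198 to 205) and 113 CPM (110 to 115) on Days 3, 7 and 14. It was highest on Day 7, as *H19* was, but both of its steps were smaller than 2-fold (log2 ratios 0.50 and -0.84). Among cells of at most 20000 UMIs, 54 of them on Day 3, the first ratio was 1.21, past 2-fold.

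*Dlk1*, a transmembrane protein related to Notch ligands and known for holding back fat cell differentiation, was nearly absent from fibroblast-like cells on Day 3. Its 5 UMIs among 20060910 gave 0.249 CPM (0.0809 to 0.582), and its levels on Days 7 and 14 were 51.5 CPM (49.8 to 53.3) and 55.3 CPM (53.6 to 57.0). Summed pericyte markers, which matter because pericyte-like cells hold *Dlk1* too, were at 17.3, 54.7 and 62.6 CPM in fibroblast-like cells (7 of 7 detected on each day), and their part in the result was not tested. At 2000 UMIs it was found in 0 of 401 Day 3 cells (Clopper-Pearson upper limit 0.916%), in 6.29% (5.69 to 6.95) of Day 7 cells and in 5.99% (5.45 to 6.57) of Day 14 cells. *Meg3*, the maternally expressed non-coding RNA of the same cluster, was by contrast found in most fibroblast-like cells on every day, with 1776 CPM (1757 to 1794), 2327 CPM (2315 to 2339) and 1907 CPM (1897 to 1917). The log2 ratio of Day 7 over Day 3 was 7.69 (6.47 to 9.32) for *Dlk1* and 0.39 (0.37 to 0.41) for *Meg3*.

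*Mest*, which encodes an alpha/beta hydrolase family protein used as a marker of fetal mesoderm, was likewise near 0 on Day 3 and was highest on Day 14. Its levels were 1.25 CPM (0.806 to 1.84, 25 UMIs), 53.5 CPM (51.7 to 55.4) and 94.8 CPM (92.6 to 97.1), so the Day 7 library was 42.9-fold above Day 3 and the Day 14 library 1.77-fold above Day 7. At 2000 UMIs it was found in 1 of 401 Day 3 cells, in 6.36% (5.75 to 7.02) of Day 7 cells and in 9.96% (9.28 to 10.7) of Day 14 cells.

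*Peg3*, a large zinc finger protein, and *Zim1*, a zinc finger gene beside it that is expressed from the other parental allele, both had their highest level on Day 14. *Peg3* was at 81.8 CPM (77.9 to 85.9) and 77.6 CPM (75.4 to 79.8) on Days 3 and 7, a difference within counting error (log2 ratio -0.08, -0.16 to 0.01), and reached 220.0 CPM (217 to 223) on Day 14. *Zim1* was at 0.449 CPM (0.205 to 0.852, 9 UMIs), 6.35 CPM (5.74 to 7.00) and 40.0 CPM (38.6 to 41.5). Day 14 was thus 2.83-fold above Day 7 for *Peg3* and 6.30-fold for *Zim1*.

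*Cdkn1c* and *Grb10*, both known to restrain growth, took separate courses. *Cdkn1c* was at 22.9 CPM (20.9 to 25.1), 134 CPM (131 to 137) and 101 CPM (98.8 to 103) on Days 3, 7 and 14, and was found at 2000 UMIs in 4.99%, 19.6% and 15.4% of cells. *Grb10* was at 245 CPM (238 to 252), 267 CPM (263 to 271) and 161 CPM (158 to 164). Over the same days the 8 listed cell cycle genes (among them *Mki67*, *Top2a* and *Cdk1*) summed to 880, 260 and 49.3 CPM in fibroblast-like cells. Of these, 8 of 8 were at least 2-fold lower on Day 14 than on Day 7, against 9.58% of 15605 genes. From Day 7 to Day 14, *Cdkn1c* and the sum of these genes were thus both lower. Over all fibroblast-like cells *Cdkn1c*, an inhibitor of the cell cycle, was lowest on the day with the highest level of these genes, but inside cluster 16, the one cluster followed from Day 3 to Day 7, both were higher on Day 7 (23.1 and 54.8 CPM of *Cdkn1c*, 945 and 2242 CPM of the cell cycle genes). On Day 7, clusters 1, 3 and 5 had more *Cdkn1c* than cluster 16 (131, 136 and 149 CPM) and less of the cell cycle genes (35.5, 39.6 and 97.9 CPM). Cluster 15 had less of both (24.5 CPM of *Cdkn1c* on 3 UMIs, and 65.4 CPM).

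The promoters of *Dlk1*, *Mest*, *Peg3* and *Zim1* are shown because the first 2 genes shared the step from Day 3 to Day 7 and the last 2, as neighbours, the step to Day 14. The RefSeq table (GRCm38.p6, 250 bases before to 50 after a start, on the gene's strand) held 15 promoters for 8 of the 10 genes, and none for *H19* and *Cdkn1c*. Capitals mark matches on either strand to GGGGCCCC, a sequence known to be bound by PLAGL1, to TATAAA and to CCAAT.
Dlk1, chr12:109452573-109452872: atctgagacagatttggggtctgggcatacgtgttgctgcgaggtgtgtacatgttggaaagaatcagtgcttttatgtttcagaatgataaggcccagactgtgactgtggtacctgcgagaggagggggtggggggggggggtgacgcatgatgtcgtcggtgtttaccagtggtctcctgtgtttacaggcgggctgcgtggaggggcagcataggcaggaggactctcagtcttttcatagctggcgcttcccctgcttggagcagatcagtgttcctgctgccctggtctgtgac
Mest, chr6:30737800-30738099: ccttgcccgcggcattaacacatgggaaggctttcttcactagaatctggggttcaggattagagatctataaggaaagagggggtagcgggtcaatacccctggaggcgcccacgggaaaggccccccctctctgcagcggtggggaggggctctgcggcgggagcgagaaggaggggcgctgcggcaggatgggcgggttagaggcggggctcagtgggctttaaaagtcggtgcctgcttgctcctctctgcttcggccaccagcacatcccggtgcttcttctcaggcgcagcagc
Peg3, chr7:6730370-6730669: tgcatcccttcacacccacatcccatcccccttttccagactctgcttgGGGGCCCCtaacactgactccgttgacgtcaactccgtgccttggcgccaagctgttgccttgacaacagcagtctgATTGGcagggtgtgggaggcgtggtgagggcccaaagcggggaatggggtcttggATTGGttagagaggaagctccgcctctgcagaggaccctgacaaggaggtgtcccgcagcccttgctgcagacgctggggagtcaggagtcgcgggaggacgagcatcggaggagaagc
Zim1, chr7:6696383-6696682: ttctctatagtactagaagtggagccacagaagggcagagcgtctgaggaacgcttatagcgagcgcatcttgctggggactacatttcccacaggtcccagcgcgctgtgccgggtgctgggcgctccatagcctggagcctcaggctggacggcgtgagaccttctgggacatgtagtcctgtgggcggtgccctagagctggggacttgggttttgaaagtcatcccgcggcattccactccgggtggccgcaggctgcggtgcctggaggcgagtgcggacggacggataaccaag
GGGGCCCC was found once in the *Peg3* window and in none of the other 14 member windows, against 1.08% of 32851 promoters of the same length. CCAAT (37.4% of all promoters) had 2 matches in *Peg3*, read as ATTGG, and none in the other 3 shown, and TATAAA (13.6% of all promoters) had none in the 4. The 4 windows held 9, 17, 13 and 20 CG pairs for *Dlk1*, *Mest*, *Peg3* and *Zim1*, where the median promoter held 7. These are matches of letters and not sites shown to be bound.

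By class, fibroblast-like cells had the highest level of 10, 7 and 8 of the 10 genes on Days 3, 7 and 14, among named classes with at least 50 cells (4, 8 and 7 classes). On Day 3 only 7 of the 10 had 20 UMIs over those classes. Over all genes with at least 20 UMIs, 47.2%, 11.7% and 13.7% were highest there. The named Day 3 classes were fibroblast-like cells and 3 kinds of leukocyte, since vascular cells were too few. Cells that got no class name (101, 392 and 578 on the 3 days) were left out of this order. In them *H19* was at 129 CPM (77.4 to 201, 19 UMIs) on Day 3, with an interval that overlaps that of fibroblast-like cells, and *Zim1* was at 14.4 CPM (7.21 to 25.8, 11 UMIs) on Day 7, above the 6.35 CPM of fibroblast-like cells. *Igf2* in these Day 7 cells was also at 14.4 CPM (11 UMIs), above each named class. On Day 14, fibroblast-like cells held between 84.6% (*Igf2*) and 96.7% (*Zim1*) of the UMIs of each member, against 74.1% of the UMIs of all genes. On Day 7 the lowest share was that of *Mest* (80.1%, against 63.2% for all genes). On Day 3 the shares of *Mest* (14.9% of 168 UMIs) and *Dlk1* (20.8% of 24 UMIs) were below the 56.3% for all genes.

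**Figure D2:**
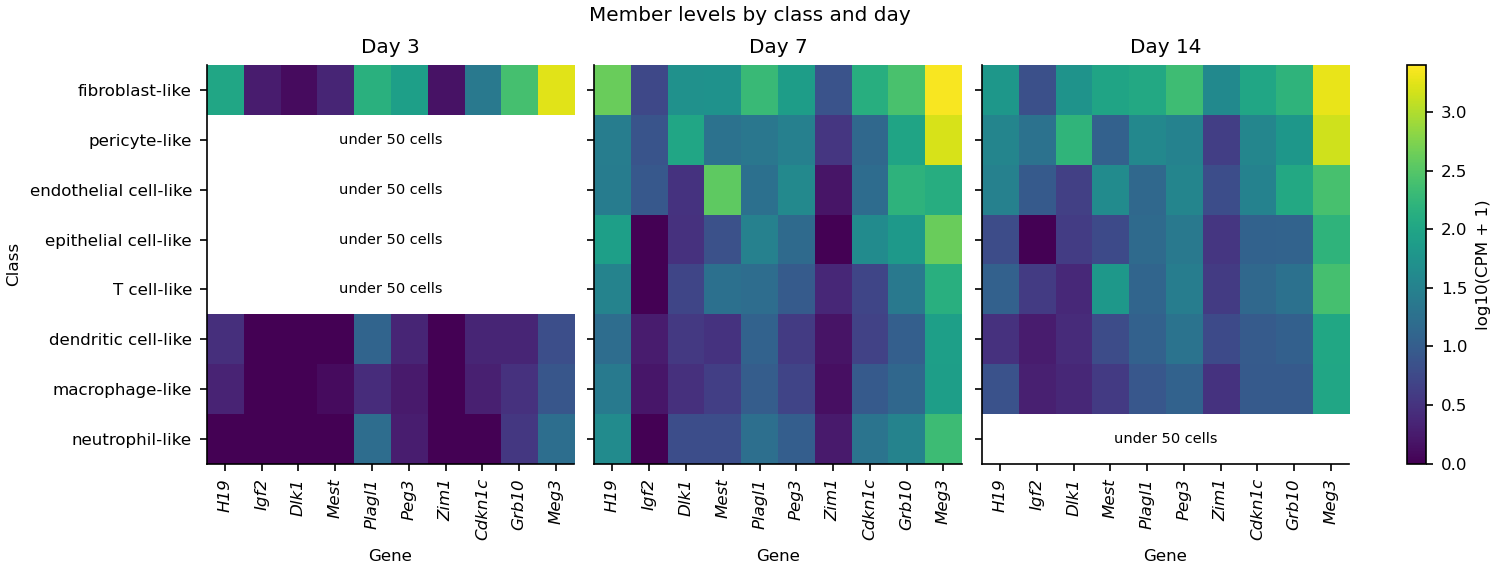
Levels of the 10 genes (columns) in cell classes (rows) on each day, as log10(CPM + 1), with blank rows for classes under 50 cells in that library. The top row, fibroblast-like cells, is brightest for most genes, and *Mest* in endothelial cell-like cells on Day 7 (361 CPM) and *Dlk1* in pericyte-like cells on Days 7 and 14 (101 and 169 CPM) stand above it.

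The exceptions, *Mest*, *Dlk1* and *Igf2*, were highest in vascular cells among the named classes. *Mest* was at 361 CPM (334 to 390, 238 cells) in endothelial cell-like cells on Day 7, or 675% of its level in fibroblast-like cells, but at 42.9 CPM (32.9 to 54.8, 241 cells) in the Day 14 library. Both endothelial cell-like clusters had this order, with 369 and 340 CPM on Day 7 and 52.6 and 26.0 CPM on Day 14. The order of the classes thus reversed between the libraries, since fibroblast-like cells were at 53.5 and 94.8 CPM. On Day 3, 140 of the 168 *Mest* UMIs of the whole library lay in 5 of only 13 endothelial cell-like cells, and 25 in fibroblast-like cells. Summed endothelial markers in fibroblast-like cells were at 6.98 CPM on Day 3 and 13.9 CPM on Day 7, and *Mest* there was at 1.25 and 53.5 CPM. The part of endothelial transcripts in these *Mest* levels was not tested. A single T cell-like cluster also held *Mest*, with 225 CPM (159 to 310, 37 UMIs in 65 cells) on Day 14.

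*Dlk1* was at 101 CPM (84.3 to 121, 186 cells) in Day 7 pericyte-like cells and at 169 CPM (150 to 188, 439 cells) in those of Day 14, above fibroblast-like cells on both days. On Day 3, 19 of the 24 *Dlk1* UMIs of the library lay in 3 of 10 pericyte-like cells. *Igf2* too was higher in pericyte-like cells on Day 14, at 17.9 CPM (12.3 to 25.1, 33 UMIs), than in fibroblast-like cells (5.76 CPM, or 4.28 CPM without cluster 15). On Day 7 it was at 7.63 CPM (4.17 to 12.8, 14 UMIs) in endothelial cell-like and 6.59 CPM (2.85 to 12.99, 8 UMIs) in pericyte-like cells, with intervals that overlap that of fibroblast-like cells (4.45 CPM), so this order is within counting error. *Meg3* in pericyte-like cells (1541 and 1412 CPM) was at 66.2% and 74.0% of its fibroblast level, and *Grb10* in endothelial cell-like cells was at 156 and 110 CPM. The other 7 genes, *H19*, *Plagl1*, *Peg3*, *Zim1*, *Cdkn1c*, *Grb10* and *Meg3*, were highest in fibroblast-like cells among the named classes on all 3 days. For *Zim1* this order was within counting error on Day 3, with 9 UMIs against 0 and upper limits of up to 3.13 CPM in the other classes. On Day 7 its interval in fibroblast-like cells (5.74 to 7.00 CPM) overlapped those of pericyte-like (0.51 to 7.23 CPM), T cell-like and epithelial cell-like cells.

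Macrophage-like cells held low levels of the members and also of fibroblast markers, which they should lack. In macrophage-like cells on Day 7, the 8 fibroblast markers summed to 3.30% of their fibroblast level (2.71 to 4.88% for single markers), and the 10 members lay between 3.42% (*Meg3*) and 13.4% (*Igf2*, 16 UMIs). *H19* there was at 23.4 CPM, or 5.51% of its fibroblast level. After thinning to 500 UMIs, 1.45% of macrophage-like cells (median 2534 UMIs) and 12.8% of fibroblast-like cells (median 10282 UMIs) held an *H19* UMI on Day 7, and unthinned shares were 6.09% and 44.4%. Of the 10 members, 6 lay above the highest single marker on Day 7. On Day 14, 8 of 10 did, with *H19* at 10.1% and *Igf2* at 16.8% of the fibroblast level, where single markers ranged from 2.97 to 4.61%. The share of all genes above the highest marker was not counted, so these counts show nothing particular to the members. Whether transcripts were carried over into these levels, and to what part, was not tested. *Mest* in endothelial cell-like cells was at 675% of the fibroblast level on Day 7, where fibroblast markers summed to 5.68%. Carry-over was not tested there either.

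The 10 genes and the other listed genes had been left out of clustering, so they did not define the fibroblast-like clusters. On Day 3, 85.5% of fibroblast-like cells were in cluster 16 (*Cxcl5*, *Saa3* and cycling genes). On Day 7, 42.3% were in cluster 5 (*Tnc*, *Tnn*, *Acta2*, *Lrrc15*) and 40.4% in cluster 3 (*Pi16*, *C3*, *Scara5*), and on Day 14, 53.1% were in cluster 1 (*Mgp*, *Cilp*, *Eln*) and 19.7% in cluster 10 (*Tnmd*, *Coch*, *Ccl19*). The prevailing cluster thus differed by day, and each step was looked at again inside clusters with at least 50 cells on both days. The libraries were clustered together without alignment between them. Differences between libraries may therefore enter cluster membership and cluster shares as well as levels, and their part was not tested.

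**Figure D3:**
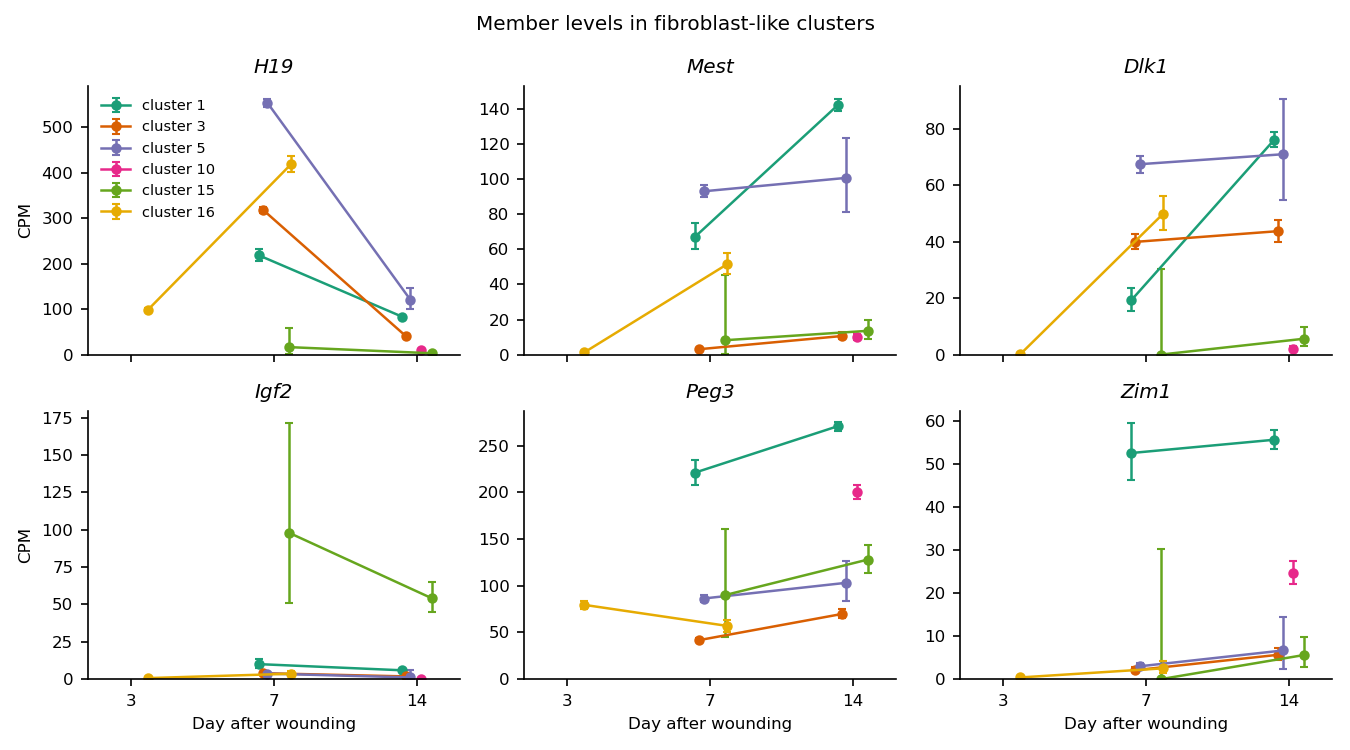
Levels (CPM, y axis from 0) of 6 of the genes in each fibroblast-like cluster with at least 50 cells in the library, by day (x axis, days evenly spaced and clusters set slightly apart), with 95% exact Poisson intervals. *H19* is lower on Day 14 in each cluster followed from Day 7, *Peg3* and *Zim1* lie apart by cluster more than by day, and *Igf2* is highest in cluster 15.

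The step from Day 3 to Day 7 was present inside cluster 16, in 353 Day 3 and 389 Day 7 cells. These were 85.5% and 6.54% of the fibroblast-like cells of their day, with medians of 46431 and 13805 UMIs. *H19* was at 98.5 and 418 CPM, *Mest* at 1.204 and 51.6 CPM, *Dlk1* at 0.164 (3 UMIs) and 49.95 CPM and *Cdkn1c* at 23.1 and 54.8 CPM. Their log2 ratios were 2.09, 5.42, 8.25 (6.69 to 10.5) and 1.25, close to those over all fibroblast-like cells for *H19* and *Mest*. *Igf2* (0.657 and 3.58 CPM) and *Zim1* (0.383 and 2.51 CPM) were also higher on Day 7, on 12 and 7 UMIs on Day 3. *Peg3* was lower inside cluster 16 on Day 7, by less than 2-fold (79.5 and 56.9 CPM). Cell cycle genes summed to 945 CPM on Day 3 and 2242 CPM on Day 7 in this cluster, and their part in the step was not tested.

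*H19* was lower on Day 14 in the 4 clusters that could be compared, in 3 of them beyond counting error. *H19* was at 218 and 83.6 CPM in cluster 1, at 318 and 40.3 CPM in cluster 3 and at 554 and 121 CPM in cluster 5, with log2 ratios of -1.38 (-1.48 to -1.28), -2.98 (-3.12 to -2.84) and -2.20 (-2.48 to -1.92). In cluster 15 it was at 16.3 and 2.80 CPM, on 2 and 6 UMIs, with an interval that includes no difference (log2 ratio -2.54, -5.03 to 0.80). Cluster 10, nearly all Day 14, held 10.5 CPM of *H19* in 1461 cells.

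*Peg3* and *Zim1* were highest in cluster 1 on both days. *Zim1* was at 52.6 CPM in cluster 1 on Day 7 and at 55.7 CPM on Day 14 (log2 ratio 0.08, -0.11 to 0.28), and *Peg3* at 221 and 271 CPM (0.29, 0.20 to 0.38). Inside cluster 3 both were lower in level and higher on Day 14 than on Day 7 beyond counting error, *Zim1* at 2.07 and 5.65 CPM (1.45, 0.89 to 2.02) and *Peg3* at 41.7 and 69.7 CPM (0.74, 0.60 to 0.88). Cluster 1 made up 8.89% of fibroblast-like cells on Day 7 and 53.1% on Day 14, and already held 62.7% of all fibroblast-like *Zim1* UMIs on Day 7. When each of the 4 clusters was kept at its Day 7 level and given its Day 14 share, *Zim1* moved from 6.74 to 40.3 CPM, where 43.5 CPM was observed on Day 14 in those clusters, and *Peg3* from 79.2 to 180 CPM, where 225 CPM was observed. For *H19* the same calculation gave 428 to 235 CPM, against 72.9 CPM observed. This calculation was chosen after the values were seen, and the cause of these steps was not tested. It leaves out cluster 10, with 43 cells on Day 7 but 19.7% of fibroblast-like cells on Day 14, and cluster 16, with 40 cells on Day 14.

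*Mest* and *Dlk1* differed from both patterns. In cluster 1, *Mest* was at 67.2 CPM on Day 7 and 142 CPM on Day 14, and *Dlk1* at 19.2 and 76.0 CPM (log2 ratio 1.99, 1.69 to 2.3). In cluster 5 neither was apart between the days, with 93.2 and 101 CPM of *Mest* and 67.4 and 70.9 CPM of *Dlk1*, within counting error. At constant cluster levels *Dlk1* would have moved from 51.9 to 23.2 CPM in the 4 clusters, where 67.2 CPM was observed, and *Mest* from 53.8 to 53.2 CPM, where 112 CPM was observed. The cause was not tested here either. Cluster 3 held little *Mest* on either day (3.05 and 10.6 CPM) beside 39.9 and 43.7 CPM of *Dlk1*, so these 2 genes were not found in the same clusters to the same degree. Cluster 10 held 1.95 CPM of *Dlk1* and 10.0 CPM of *Mest*, but 199.9 CPM of *Peg3* and 1972 CPM of *Meg3*.

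*Igf2* was concentrated in cluster 15. On Day 14 this cluster of 725 cells had 54.2 CPM of *Igf2*, and 116 of the 416 fibroblast-like *Igf2* UMIs (27.9%) came from 2.96% of the UMIs of all genes. The same cells held 2.80 CPM of *H19*, 5.60 CPM of *Dlk1* and 199 CPM of *Meg3*, each far below cluster 1 (83.6, 76.0 and 2011 CPM). On Day 7, 64 cells of cluster 15 held 12 *Igf2* UMIs (98.1 CPM). Without cluster 15, *Igf2* in fibroblast-like cells was at 0.648, 4.27 and 4.28 CPM on Days 3, 7 and 14, so its Day 14 level was no higher than that of Day 7. In clusters 1 and 3 *Igf2* was lower on Day 14 (10.0 and 5.90 CPM in cluster 1, 3.94 and 1.80 CPM in cluster 3).

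Co-detection was counted at an equal depth of 2000 UMIs per cell in 401, 5846 and 7075 fibroblast-like cells, leaving out 12, 104 and 347 shallower ones. For each pair of members, the cells that held both were compared with the number given by the product of the shares that held each. Pairs were read where that product came to at least 5 cells, which held for 12, 39 and 45 of 45 pairs on Days 3, 7 and 14.

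On Day 7, 8 of 39 pairs were found together at least 1.5 times as often as the product, where 3.38% of 33443973 pairs of all genes found in at least 1% of cells were. *Igf2* was found in fewer cells (0.582%), and without its pairs, which that share does not cover, the count was 6 of 34. On Day 14 it was 12 of 45 pairs, against 4.09% of pairs of all genes. The median ratio of observed to product was 1.12 and 1.198 for the members' pairs on these days, and 1.00 and 1.01 for all pairs. On Day 3, 1 of 12 pairs (*Plagl1* with *Peg3*, 16 cells against 10.5) passed the limit, against 3.08% of pairs of all genes. The odds ratio of that pair was 1.94 (0.94 to 3.84), and no pair passed under several alternatives given below. Cells are not replicates, so the counts describe these libraries.

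**Figure D4:**
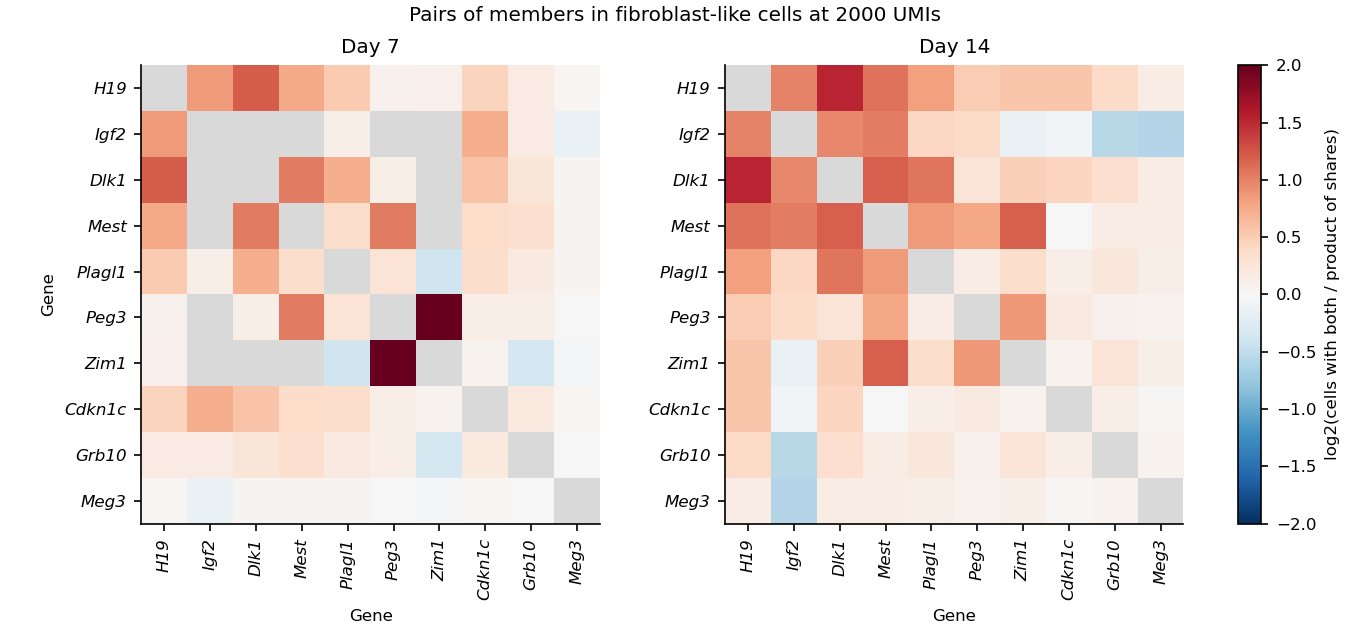
Each pair of the 10 genes in fibroblast-like cells at 2000 UMIs on Day 7 and Day 14, as log2 of the cells with both genes over the product of shares (red above, blue below, grey on the diagonal and where the product is under 5 cells; the scale ends at 2). *H19* with *Dlk1*, *Mest* with *Zim1* and *Peg3* with *Zim1* are among the reddest, and *Igf2* with *Meg3* on Day 14 is the bluest.

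*H19*, *Dlk1* and *Mest* formed a group in which every pair was above the limit on both days. *H19* and *Dlk1* were found together in 222 cells on Day 7 against 95.6 from the product, 2.32 times as often, and in 72 against 25.1 cells on Day 14, 2.87 times as often. *H19* with *Mest* came to 1.70 and 2.11 times the product and *Dlk1* with *Mest* to 2.05 and 2.296 times. *Dlk1* with *Plagl1*, at 1.66 and 2.09 times, was also above the limit on both days, as was *Mest* with *Peg3*, at 2.05 and 1.71 times.

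Pairs of neighbouring genes differed among themselves. *Peg3* and *Zim1*, the closest neighbours, were together in 33 cells against 7.83 on Day 7 (4.22 times, the highest ratio of the day) and in 256 against 141 on Day 14 (1.82 times). *H19* and *Igf2* were together 1.81 and 1.98 times as often as the product, on 16 and 11 cells. *Cdkn1c*, farther off on the same chromosome, was with *Igf2* 1.65 and 0.964 times as often as the product, on 11 and 14 cells. *H19* with *Cdkn1c* came to 1.37 and 1.47 times. *Dlk1* and *Meg3* came to 1.04 and 1.10 times the product, but *Meg3* was in 93.8% and 84.6% of all cells at this depth, which caps that ratio, and their odds ratios were 3.11 (1.54 to 7.32) and 2.68 (1.82 to 4.11).

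For *Peg3* with *Zim1* and the pairs among *H19*, *Dlk1* and *Mest*, odds ratios were lower within clusters on both days, while that of *H19* with *Igf2* was higher (2.55 and 3.29 on Day 7, 2.14 and 3.66 on Day 14). The odds ratio of *Peg3* with *Zim1* on Day 7 was 7.56 (4.52 to 12.6) over all cells and 3.60 when combined within clusters by the Mantel-Haenszel method, and that of *H19* with *Dlk1* was 4.90 (3.92 to 6.14) and 4.62. On Day 14 the odds ratio over all cells and within clusters was 3.73 and 2.68 for *H19* with *Dlk1*, 2.61 and 1.74 for *H19* with *Mest*, and 2.95 and 1.99 for *Dlk1* with *Mest*. Over all pairs read, 18 of 39 had an odds ratio of at least 1.5 on Day 7 and 20 within clusters, and 23 and 21 of 45 on Day 14. The share of pairs of all genes past this odds ratio was not counted, so these counts show nothing particular to the members. *Igf2* with *Meg3* changed sides on Day 14, with an odds ratio of 0.228 (0.148 to 0.354) over all cells and 1.502 within clusters. The cause of this was not tested.

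The number of members found in one cell was spread more widely than the product of shares gives. Without *Meg3*, 5 or more of the other 9 genes were found in 89 of 5846 cells on Day 7 (1.52%, against 0.279% from the product) and in 84 of 7075 cells on Day 14 (1.19%, against 0.180%). Cells with none of the 9 were more frequent as well, at 26.4% against 20.001% on Day 7 and 32.4% against 27.0% on Day 14. On Day 3, 38.4% of cells held none, against 36.7%, and no cell held more than 3. The product is taken over all fibroblast-like cells, whose clusters differ in these genes, and no count within clusters or for other sets of genes was made.

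**Figure D5:**
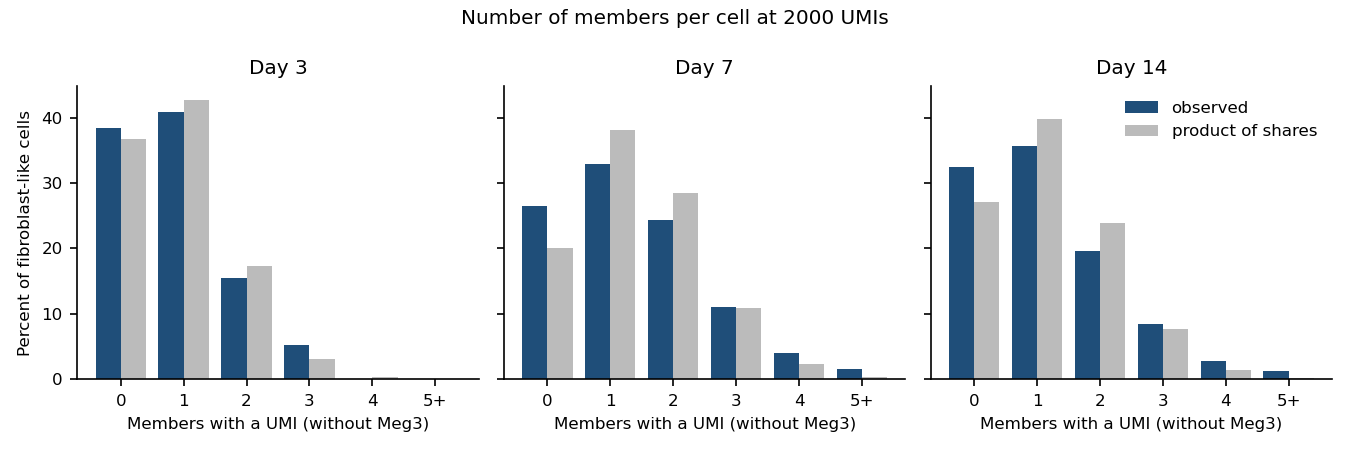
Percent of fibroblast-like cells (y axis) by the number of the 9 genes other than *Meg3* found at 2000 UMIs (x axis, 5+ for 5 or more), observed (dark) and from the product of the shares (grey), for each day. On Days 7 and 14 the dark bars exceed the grey ones at 0 and at 3 or more genes, and fall below them at 1 and 2.

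A list of 50 other imprinted genes was read in the same way. Of these, 38 had at least 20 UMIs in the fibroblast-like cells of Days 3 and 7. On Day 7, 5 of the 38 were at least 2-fold higher and 5 at least 2-fold lower, where 12.4% of all genes were that much higher and 10.2% that much lower. Their median log2 ratio was 0.25, against 2.26 for the 10 genes and -0.09 for all genes. The 10 genes were picked with these levels known, so their median is no test against the other lists. Of 41 read for Days 7 and 14, 9 were at least 2-fold higher on Day 14 and 5 lower, against 9.01% and 9.58% of all genes. *Gnas*, which encodes a stimulatory G protein subunit, was at 816, 1099 and 1464 CPM on Days 3, 7 and 14. *Rian*, a non-coding RNA of the *Dlk1* and *Meg3* cluster, was at 689, 603 and 477 CPM, and *Igf2r*, the receptor that clears IGF2, at 120, 157 and 105 CPM. *H13*, a signal peptide peptidase, was at 230, 132 and 92.6 CPM, and the non-coding RNA *Kcnq1ot1* at 109, 170 and 182 CPM. These 5 stayed within 2-fold between Day 7 and Day 14.

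Among genes of the list with at least 10 UMIs on both days, the largest steps from Day 7 to Day 14 were those of *Slc38a4*, an amino acid transporter (43.8 and 6.88 CPM, log2 ratio -2.67), *Dio3*, which inactivates thyroid hormone (1.18 and 0.249 CPM, -2.25), *Rtl1* (1.88 and 0.526 CPM, -1.84), *Nap1l5* (0.332 and 0.927 CPM, 1.48) and the chloride channel *Ano1* (0.284 and 0.789 CPM, 1.47). Of these only *Slc38a4* rested on more than 119 UMIs on either day. *Rtl1* and *Kcnq1ot1* overlap transcripts of the opposite strand, and whether strand was used in counting is not stated in the sources used here.

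Among 15 genes of the IGF pathway, *Igf2r* included, 7 were at least 2-fold higher on Day 7 than on Day 3 and 1 lower (12.4% and 10.2% of all genes), and 4 were higher on Day 14 than on Day 7 and 2 lower (9.01% and 9.58% of all genes). *Igf1*, the other IGF ligand, was at 87.2, 361 and 527 CPM on Days 3, 7 and 14. The binding proteins, which hold IGFs outside the cell, were mostly highest on Day 14, with *Igfbp5* at 86.2, 901 and 1052 CPM, *Igfbp6* at 165, 576 and 1161 CPM, *Igfbp7* at 188, 475 and 1128 CPM and *Igfbp2* at 0.150, 3.88 and 74.4 CPM. *Igfbp3* was at 238, 89.7 and 345 CPM and *Igfbp4* at 229, 589 and 439 CPM. Of the receptors and their adaptors only *Irs1* passed 2-fold in either step, with *Igf1r* at 100.3, 59.8 and 59.0 CPM, *Insr* at 18.5, 21.1 and 20.1 CPM, *Irs1* at 17.6, 39.9 and 38.7 CPM and *Irs2* at 82.0, 48.4 and 79.7 CPM. Of the RNA-binding proteins named for binding *Igf2* mRNA, *Igf2bp2* was at 59.4, 32.9 and 21.3 CPM and *Igf2bp3* at 7.98, 11.2 and 5.01 CPM.

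Over 54 groups of cells (a cluster on a day, at least 50 cells) the genes most like each member by Pearson correlation of log2(CPM + 1) were looked up among 13661 genes, as a description without a test. *Meg3* was most like *Col1a1* (0.97), *Col3a1* (0.96) and *Rian* (0.96), *Grb10* like *Fstl1*, *Hspg2* and *Fbln2* (0.94 to 0.95), *Peg3* like *Mfap2*, *Adamts2* and *Nid1* (0.91 to 0.93), and *Cdkn1c* like *Zfhx4*, *Islr* and *Tgfb2* (0.90 to 0.91). *Plagl1* was most like *Sulf1*, *Thbs3* and *Mrc2* (0.89 to 0.90) and *H19* like *Vegfd*, *Sfrp2* and *Cpxm1* (0.84 to 0.85). *Dlk1* was most like *Col6a5*, *Kcnj8* and *Adamts12* (0.81 to 0.84), of which *Kcnj8* marks pericytes, and *Zim1* like *Angptl1*, *Omd* and *Fbln7* (0.82 to 0.86), of which *Angptl1* and *Fbln7* also led cluster 1. *Mest* was most like *Eda2r*, *Stx1a* and *Zfp57* (0.79 to 0.81) and *Igf2*, on 842 UMIs, like *Zfp37*, *Tmtc1* and *Zfp334* (0.75 to 0.78). These groups are of all cell classes and not of fibroblast-like cells alone, so differences between classes enter the correlations. *Col1a1* and *Col3a1* are also among the markers used to name fibroblast-like clusters. The groups share 3 libraries and their depth.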

How the data were processed

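Cells of mouse skin wounds were profiled in 1 Chromium 3′ library per day. The authors deposited raw UMI counts per gene and barcode, made with Cell Ranger 6.0.0 on build mm10 per the submitters' processing notes, with an annotation not given in the sources used here. Ensembl IDs gave a symbol for 32158 of 32285 genes. Cells with at least 200 genes, 500 UMIs and at most 10% mitochondrial UMIs were kept. The 92, 1978 and 962 barcodes with the highest doublet scores were then removed, a part of 0.5 of the number expected. The full expected rate, used as an alternative, called 184, 3955 and 1923, so doublets may remain. Leiden clustering (leidenalg 0.10.2, resolution 1, 15 neighbours, 30 components, 2000 variable genes, Python 3.11.15) left out all listed genes, and clusters were named from marker lists. The libraries were clustered together, without alignment between them. Counts were summed per class or cluster, and no p-value is given. Molecules were counted by UMI, and intervals cover counting error only. The ratio intervals, thinning and co-detection were also run on simulated counts, with outcomes not given here. The members, lists and rules were chosen with earlier results of these data known. Named genes were the 10 members, of the imprinted list the 5 with the highest CPM on any day and the 5 largest steps from Day 7 to Day 14 past 2-fold with at least 10 UMIs on both days, the IGF pathway genes above 5 CPM on any day, and the 3 genes most like each member. Alternatives covered scaling, cell filters, doublets, class naming, resolution, thinning depth and left-out clusters.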

Additional observations from a re-analysis of the deposited data

How the results depend on the processing

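No paired analysis was possible because there was 1 library per day, and for the same reason no library could be left out. Of 507 values recomputed under 18 alternatives, 484 stayed on their side of the 2-fold limit or, for counts, within 1.5 times the reported count (for the median of all genes, within 0.1). A change of sign inside 2-fold is not counted by this, and occurred for *Peg3* on Day 7 over Day 3 (-0.08, up to 0.25) and for *Igf2* (0.37, down to -0.023) on Day 14 over Day 7. For *Mest* on the latter step the lowest value, -0.016, was a calculated ratio described below. Members highest in fibroblast-like cells on Day 3 numbered 7 to 10. Members at least 2-fold higher and lower numbered 2 and 1 for Day 14 over Day 7 under each of 14 alternatives, and 5 to 6 and 0 for Day 7 over Day 3, though not always the same genes. Restricting cells to at most 20000 UMIs, chosen after seeing the data, left 54 Day 3 fibroblast-like cells in which *Dlk1*, *Mest* and *Zim1* had 0 UMIs and gave no ratio. The 6 members counted as higher there are these 3, scored as higher over 0 UMIs, with *H19*, *Cdkn1c* and *Plagl1*, and without *Igf2*. There the log2 ratio of Day 7 over Day 3 was -0.17 for *Igf2* (3 UMIs) and 1.21 for *Plagl1*, and 9 other imprinted genes were at least 2-fold higher instead of 5, any at 0 UMIs on Day 3 scored as higher. With the mean of single-cell CPM the ratio of *Igf2* was 0.96, and 3 instead of 5 other imprinted genes were lower on Day 14. At 5% mitochondrial UMIs, 3 were higher and 3 lower on Day 7, instead of 5 each. Member pairs above the limit on Day 3, 1 in the report, numbered 0 with the full doublet rate, with classes per cell, at resolution 2 and at both other thinning depths, and 2 without cluster 15 (added after seeing the data). With a within-cluster odds ratio of at least 1.5 as the limit, a different quantity, 5, 20 and 21 pairs passed on Days 3, 7 and 14. No share over pairs of all genes was counted for it. A calculated level, with Day 7 cluster levels at Day 14 shares, was also added after seeing the data. No Day 14 level of a gene enters it. Over the Day 7 level its log2 ratio was -0.86 for *H19*, 1.41 for *Igf2*, -1.16 for *Dlk1* and -0.016 for *Mest*. Observed ratios of Day 14 over Day 7 in the same clusters were -2.55, 0.60, 0.37 and 1.06 (0.82 for *Mest* over all clusters). The calculated ratios are counted among the 507 values, though they are not recomputed Day 14 levels. The cause of the changes under the alternatives was not tested. The median log2 ratio of all genes, -0.09 for Day 7 over Day 3, was 0.14 without the 50 most abundant genes, and -0.14 for Day 14 over Day 7 became 0.0017 with the median of ratios. *Igf2*, *Zim1* and *Dlk1* on Day 3 were limited by 16, 9 and 5 UMIs.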
